A study of Rattus norvegicus with 21 samples.

Results

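The mitochondrial ribosomal protein genes were taken as all genes whose symbol begins with Mrpl or Mrps followed by a number, in any spelling of capitals. Of the 13438 genes that the array annotation names through a probe set with a single symbol, 76 met this rule, 49 with the prefix Mrpl and 27 with Mrps. They were covered by 102 probe sets, and for a gene with several of them the brightest on average across the 21 arrays was used. The annotation spells 3 of them in lower case (mrpl9, mrpl11 and mrpl24), and the names are printed here as it gives them.

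The study measured RNA of INS-1 cells, a rat insulin-secreting beta cell line, on Affymetrix expression arrays. The cells were untransfected (INS1), stably transfected with the empty vector (pcDNA), or a single clone stably transfected with a plasmid encoding cathepsin H, a lysosomal cysteine protease (pCTSH#1). After a preculture of 3 days, pcDNA and pCTSH#1 cells received 150 pg/ml recombinant mouse IL-1β together with 5 ng/ml recombinant rat IFNγ for 0, 6 or 16 h, and INS1 cells were taken at 0 h only. Each of the 7 groups held 3 arrays. The comparisons ask which genes respond to the cytokines and whether the clone labelled as overexpressing cathepsin H responds differently. The array's Ctsh probe set lay near background throughout, from 3.48 to 4.18 on the pcDNA arrays and from 3.85 to 5.08 on the pCTSH#1 arrays. By limma the difference between pCTSH#1 and pcDNA did not pass at 0 h (0.10 ± 0.20, adjusted p = 0.945), 6 h (0.40 ± 0.20, adjusted p = 0.458) or 16 h (0.66 ± 0.20, adjusted p = 0.08), so these arrays do not show the overexpression that the labels state. Whether this Ctsh probe set can detect RNA made from the plasmid was not tested. No untreated arrays accompany the 6 h and 16 h groups, so cytokine exposure and time in culture cannot be told apart. The labels number the replicates without saying that they were separate cultures, so a p-value here reflects array-to-array spread that may be technical.

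Mitochondria translate their own genome on a dedicated ribosome, the mitoribosome, which makes core subunits of the respiratory chain and of ATP synthase. Its ribosomal RNAs come from mitochondrial DNA, whereas all of its proteins are encoded in the nucleus, made in the cytosol and imported. The small subunit binds and decodes the messenger RNA, and the large subunit joins the amino acids and holds the exit tunnel through which the new protein leaves. In beta cells, ATP made by mitochondria closes the potassium channels that hold back insulin secretion.

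Promoter sequences are shown for some of the members with large changes and for 1 pair of members that share an intergenic interval. Among RefSeq promoters of build GRCr8, 62 of the 76 members had a listed window of 300 bases, from 250 before to 50 after the annotated start. In each line of sequence below the bases run 5′ to 3′ on the gene's strand, up to the base just before the start. Capitals mark the matches to the palindrome-like core motif of the transcription factor NRF1, searched on both strands with any base at 1 inner position; the other sequences contain none. The members with the largest increases at 16 h were mrpl9 (chr2:184770947-184771066, plus strand) and Mrps18b (chr20:2842886-2843005, plus strand), which encode a large and a small subunit protein. Among the members with the largest decreases were Mrpl20 (chr5:171691078-171691197, plus strand) and Mrpl41 (chr3:28179756-28179875, minus strand). The last sequence is the whole interval between the divergent starts of Mrps11 and Mrpl46, on the strand of Mrpl46 (chr1:142117031-142117263, minus strand).
mrpl9: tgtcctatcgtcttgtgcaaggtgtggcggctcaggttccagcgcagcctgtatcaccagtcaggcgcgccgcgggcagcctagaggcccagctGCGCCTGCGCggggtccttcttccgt
Mrps18b: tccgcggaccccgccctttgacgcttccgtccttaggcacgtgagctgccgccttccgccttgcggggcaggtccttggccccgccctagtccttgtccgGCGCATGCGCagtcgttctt
Mrpl20: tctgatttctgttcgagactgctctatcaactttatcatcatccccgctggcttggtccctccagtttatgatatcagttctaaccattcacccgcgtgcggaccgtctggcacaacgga
Mrpl41: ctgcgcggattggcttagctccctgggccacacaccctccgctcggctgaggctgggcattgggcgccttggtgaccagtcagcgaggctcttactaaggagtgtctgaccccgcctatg
Mrps11-Mrpl46: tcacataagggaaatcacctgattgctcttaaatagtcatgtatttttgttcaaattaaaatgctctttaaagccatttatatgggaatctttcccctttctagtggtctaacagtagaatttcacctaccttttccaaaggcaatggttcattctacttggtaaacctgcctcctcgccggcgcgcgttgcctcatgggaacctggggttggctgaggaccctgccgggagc

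The values are the log2 intensities the authors deposited, and all tests were made with limma on all 31042 probe sets, with Benjamini-Hochberg adjustment and a threshold of 0.05. Every member lay above background on all 21 arrays: the lowest member level on an array ranged from 6.36 to 6.84, against a background of 3.88 to 4.17, the highest value among 21 nonspecific control probe sets. All 76 members lay in the brighter 50% of probe sets. The 8 measured beta cell markers, insulin genes included, were above background on all arrays, whereas Amy2a3 and Cpa1 of exocrine pancreas and Cd3e of T cells were at background on all arrays. Of markers of other cell types, Gcg, Ghrl, Thy1 and Cd68 were above background on all arrays, Lyz2 on 20 and Pdgfra on 17. From 0 h to 16 h in pcDNA the group means went from 8.60 to 6.26 for Gcg, 8.21 to 7.30 for Thy1, 5.82 to 3.95 for Pdgfra, 4.69 to 5.52 for Cd68 and 4.14 to 4.63 for Lyz2. The beta cell factors Pdx1 and Nkx6-1 were lower after the cytokines, from 9.73 and 8.46 at 0 h to 7.74 and 5.45 at 16 h in pcDNA (group means), and the part of these markers in the results was not tested. The arrays carry whole cultures, in which fewer cells of a type and less RNA per cell cannot be told apart.

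The median member level was 9.74 ± 0.07 (SD, n = 3) in untreated INS1 cells, 9.74 ± 0.09 in pcDNA cells and 9.76 ± 0.03 in pCTSH#1 cells at 0 h. It was 9.66 ± 0.03 at 6 h and 9.50 ± 0.02 at 16 h in pcDNA cells, and 9.65 ± 0.03 and 9.46 ± 0.06 in pCTSH#1 cells. The 3 untreated groups thus lay together and both 16 h groups lay lowest. Over all genes the group medians lay between 6.90 and 6.96. This shift was smaller under other scalings of the arrays: between 0 h and 16 h in pcDNA the median member level moved by -0.241 as deposited, by -0.147 with each array centred on its median and by -0.14 after cyclic loess.

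After 16 h of cytokines, 42 of the 76 members fell and 14 rose in pcDNA cells (limma, adjusted p below 0.05), and 42 fell and 17 rose in pCTSH#1 cells. Read against the background, 55.3% of all genes passed in pcDNA and 55.2% in pCTSH#1, and among genes in the brighter 50% of probe sets 75.6% and 75.7%. The members' total share of 73.7% in pcDNA therefore lay near that of the brighter genes. The split by direction lay further apart: 55.3% of the members were lower in each line, against 29.5% and 30.1% of all genes and 40.9% and 41.5% of the brighter genes. Of the members 18.4% were higher in pcDNA and 22.4% in pCTSH#1, against 25.8% and 25.2% of all genes and 34.7% and 34.2% of the brighter genes. The median member change was -0.296 in pcDNA and -0.277 in pCTSH#1, and the median over all genes was -0.00447 and -0.0123. With each array centred on its median the members split into 20 higher and 37 lower in pcDNA, and after cyclic loess into 21 and 38. After loess 27.6% of the members were higher and 50% lower in pcDNA, against 29.3% and 26.3% of all genes. Against all genes the gap in higher calls was thus smaller there and that in lower calls remained. The brighter genes were not compared after loess.

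The 42 members that fell were called lower in both lines, and the 14 that rose in pcDNA also rose in pCTSH#1. The lines share no arrays in these comparisons, but all arrays were fitted in 1 model with a shared estimate of each gene's spread. The share of all genes called alike in both lines is not given here, so this agreement cannot be read as particular to the members. Mrpl16, Mrps28 and Mrps34 passed in pCTSH#1 alone, 17 members passed in neither line, and none passed in opposite directions. In size, 30 members fell by more than 0.5 and 10 by more than 1 on the log2 scale in each line, whereas 5 rose by more than 0.5 in pcDNA and 4 in pCTSH#1. Changes below -0.5 were found for 39.5% of the members in each line, against 21.6% and 21.7% of all genes. Of the 13438 genes, 1336 in pcDNA and 1328 in pCTSH#1 fell by more than 1. Changes above 0.5 were found for 6.58% and 5.26% of the members, against 18.2% and 17.8% of all genes. These sizes were not set against the brighter genes.

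**Figure D1:**
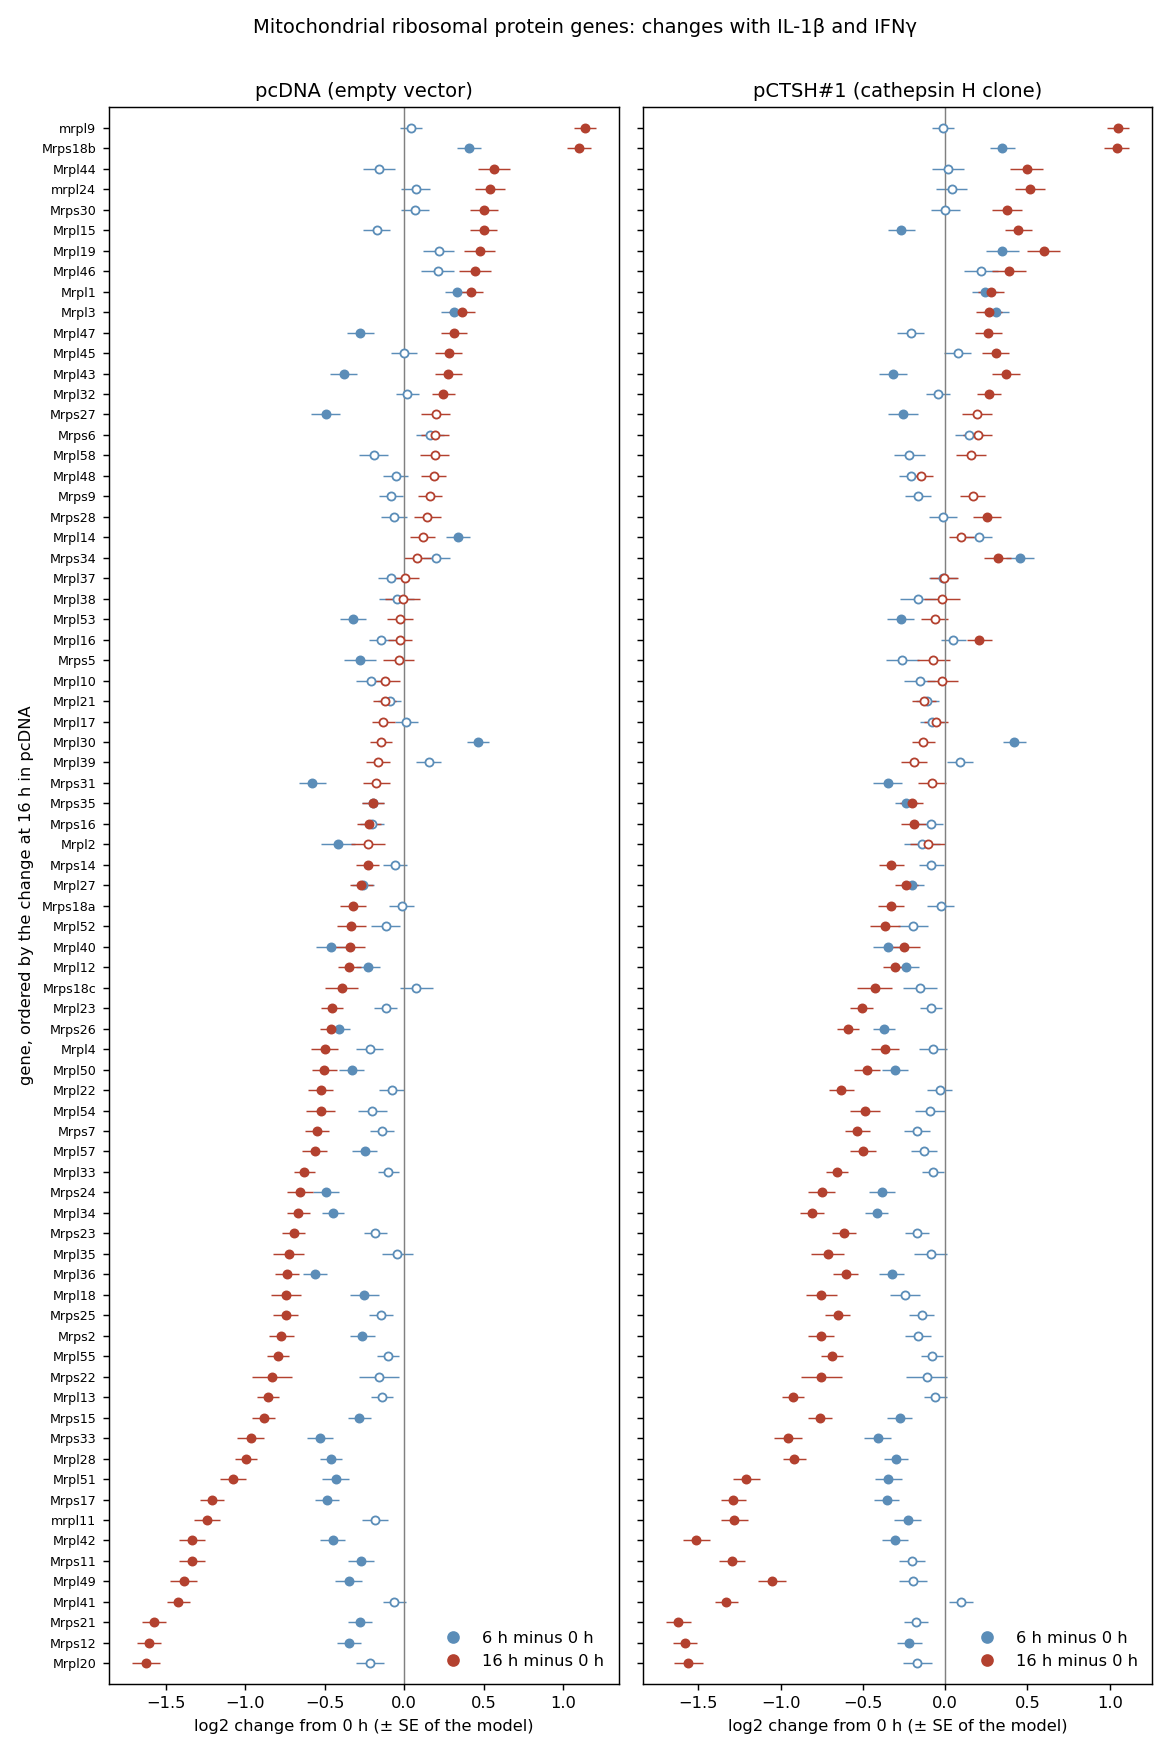
Log2 change from 0 h at 6 h (blue) and 16 h (red) for each of the 76 genes in pcDNA (left) and pCTSH#1 (right), ordered by the 16 h change in pcDNA; bars are the standard error of the model over 3 arrays a group, filled points passed adjusted p below 0.05 and open points did not. The red points run from -1.62 for Mrpl20 to 1.14 for mrpl9 in pcDNA, with a like order in pCTSH#1, and the blue points stay between -0.58 and 0.46.

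**Figure D2:**
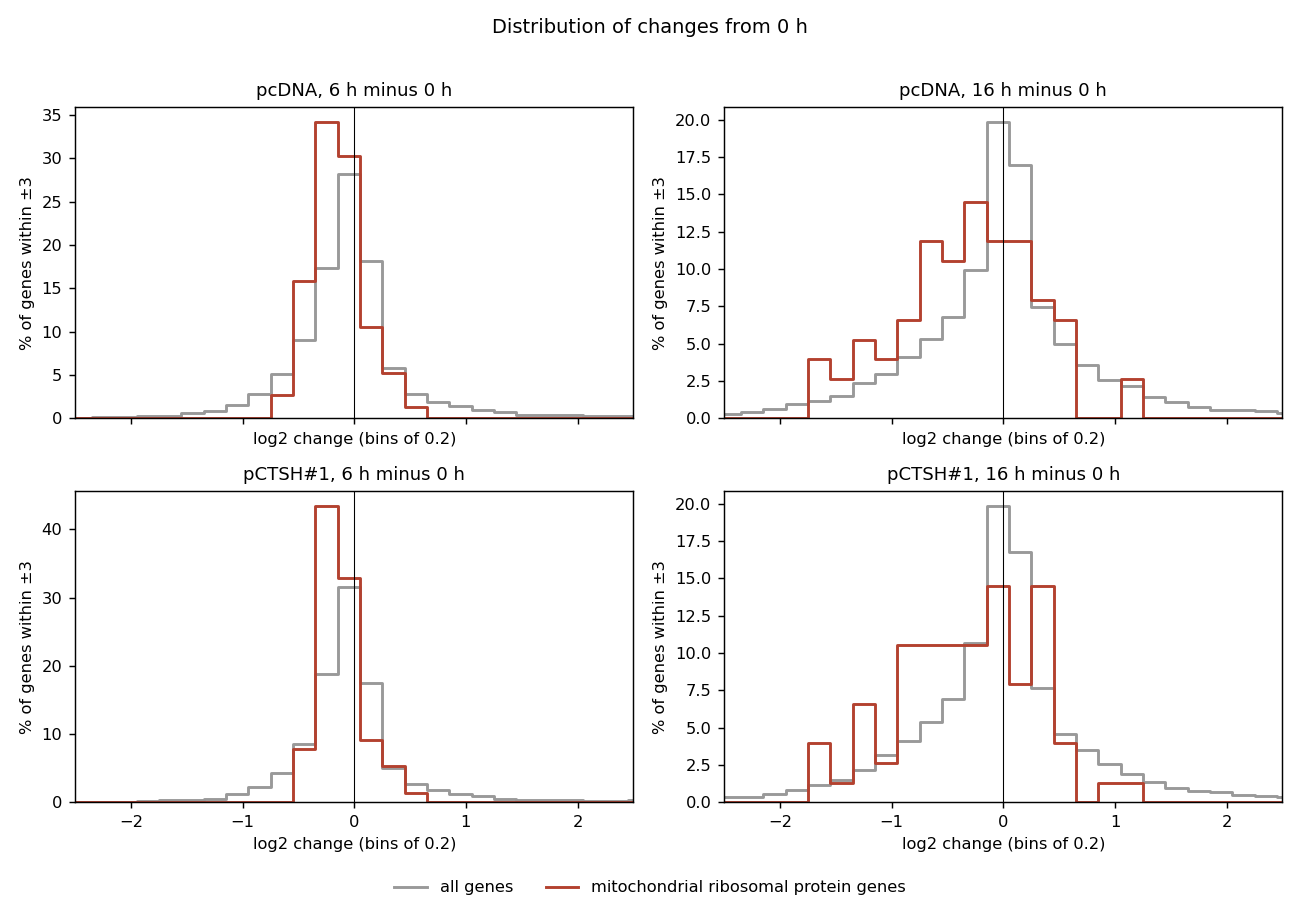
Share of genes (percent of those with a change within ±3) in each 0.2-wide bin of log2 change from 0 h, for all 13438 genes (grey) and the 76 mitochondrial ribosomal protein genes (red), in 4 panels by line and time. At 16 h the members are spread further to the left than all genes, with medians of -0.296 in pcDNA and -0.277 in pCTSH#1, and no member changed by more than 1.62.

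In the small subunit, 17 of 25 members fell and 1 rose at 16 h in pcDNA, with a median change of -0.462, and 17 fell and 3 rose in pCTSH#1, with a median of -0.534. Mrps12, the homologue of the bacterial protein at the decoding site, measured 10.53, 10.68 and 10.60 on the pcDNA arrays at 0 h, 10.26, 10.20 and 10.30 at 6 h and 8.98, 8.98 and 9.02 at 16 h. In pCTSH#1 it measured 10.55, 10.67 and 10.57 at 0 h, 10.39, 10.38 and 10.37 at 6 h and 9.03, 8.98 and 9.05 at 16 h. In both lines the 3 time points did not overlap, and the 16 h arrays stood far below the others. The 16 h change was -1.61 ± 0.074 (SE; 3.04-fold lower, adjusted p = 4.85e-13) in pcDNA and -1.58 ± 0.074 (2.99-fold lower, adjusted p = 6.35e-13) in pCTSH#1 by limma.

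Mrps21, a homologue of bacterial S21, measured 10.78, 10.76 and 10.79 at 0 h, 10.49, 10.44 and 10.58 at 6 h and 9.19, 9.26 and 9.17 at 16 h in pcDNA, and 10.69, 10.84 and 10.85 at 0 h, 10.56, 10.62 and 10.67 at 6 h and 9.08, 9.25 and 9.18 at 16 h in pCTSH#1. The 16 h arrays of both lines lay below every other array. The changes were -1.57 ± 0.075 (adjusted p = 8.14e-13) and -1.62 ± 0.075 (adjusted p = 5.42e-13). Mrps11 and Mrps17, homologues of bacterial S11 and S17, fell by 1.34 and 1.21 in pcDNA and by 1.30 and 1.29 in pCTSH#1. Mrps7, whose bacterial homologue starts the assembly of the small subunit head, fell less, by 0.55 and 0.53. Mrps5 and Mrps9 did not pass at 16 h in either line, with changes of -0.04 and 0.16 in pcDNA.

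The small subunit member that rose in pcDNA was Mrps18b, 1 of 3 mammalian genes related to bacterial S18. It measured 9.23, 9.29 and 9.44 at 0 h, 9.66, 9.75 and 9.77 at 6 h and 10.49, 10.34 and 10.44 at 16 h in pcDNA, and 9.16, 9.25 and 9.35 at 0 h, 9.56, 9.60 and 9.64 at 6 h and 10.25, 10.32 and 10.31 at 16 h in pCTSH#1. Each time point lay above the one before it with no overlap in either line. By limma it rose by 0.41 ± 0.076 at 6 h (adjusted p = 0.000263) and by 1.10 ± 0.076 at 16 h (adjusted p = 1.99e-10) in pcDNA, and by 0.35 ± 0.076 and 1.04 ± 0.076 in pCTSH#1. The other two S18 relatives moved the other way at 16 h: Mrps18a, whose protein sits in the large subunit, fell by 0.32 in pcDNA and 0.33 in pCTSH#1, and Mrps18c, a small subunit protein, fell by 0.39 and 0.43. The 3 proteins occupy different places in the mitoribosome.

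**Figure D3:**
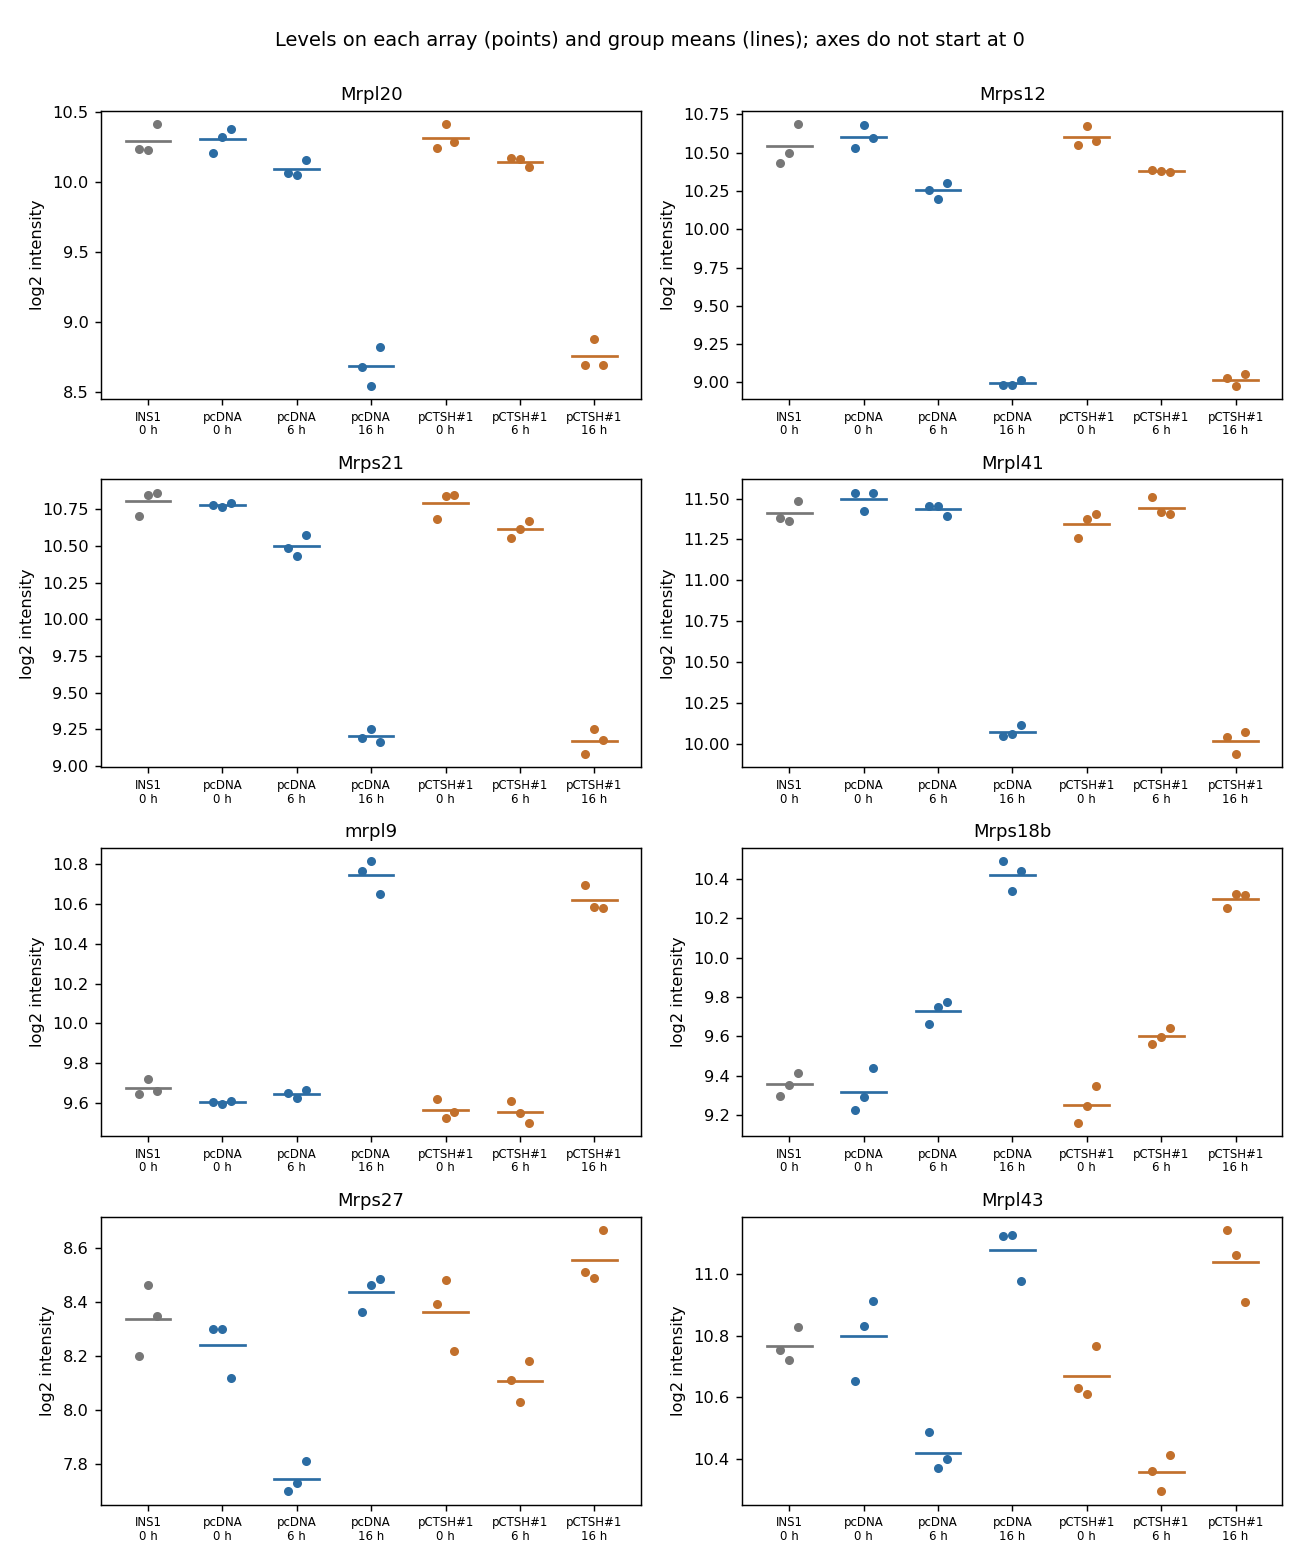
Log2 intensity of 8 genes on each of the 21 arrays (points) with the group means (lines), for INS1 (grey), pcDNA (blue) and pCTSH#1 (orange) at the times named on the axis; the vertical axes do not start at 0. In Mrpl20, Mrps12, Mrps21 and Mrpl41 the 16 h arrays of both lines lie lowest, in mrpl9 and Mrps18b they lie highest, and in Mrps27 and Mrpl43 the 6 h arrays lie lowest within each line.

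In the large subunit, 25 of 51 members fell in each line at 16 h, and 13 rose in pcDNA and 14 in pCTSH#1, with median changes of -0.23 and -0.191. Mrpl20, the homologue of a bacterial protein needed early in large subunit assembly, measured 10.21, 10.33 and 10.38 at 0 h, 10.07, 10.05 and 10.16 at 6 h and 8.68, 8.54 and 8.82 at 16 h in pcDNA, and 10.25, 10.42 and 10.29 at 0 h, 10.17, 10.16 and 10.11 at 6 h and 8.69, 8.88 and 8.69 at 16 h in pCTSH#1. All 6 arrays at 16 h lay more than 1 log2 unit below all others. The change was -1.62 ± 0.088 (3.08-fold lower, adjusted p = 4.86e-12) in pcDNA and -1.56 ± 0.088 (2.95-fold lower, adjusted p = 8.75e-12) in pCTSH#1 by limma. At 6 h Mrpl20 did not pass in either line, at -0.21 ± 0.088 (adjusted p = 0.0729) and -0.17 ± 0.088 (adjusted p = 0.187).

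Mrpl41, a large subunit protein without a bacterial counterpart, measured 11.53, 11.42 and 11.54 at 0 h, 11.45, 11.45 and 11.39 at 6 h and 10.05, 10.06 and 10.12 at 16 h in pcDNA, and 11.26, 11.37 and 11.41 at 0 h, 11.51, 11.42 and 11.40 at 6 h and 10.04, 9.93 and 10.07 at 16 h in pCTSH#1. Its 0 h and 6 h arrays overlapped in both lines, and its 16 h arrays lay apart below them. The 16 h changes were -1.42 ± 0.072 (adjusted p = 1.71e-12) and -1.33 ± 0.072 (adjusted p = 4.74e-12). Mrpl42, Mrpl49 and Mrpl51, also without bacterial counterparts, and mrpl11, the base of the stalk that recruits translation factors, were the other large subunit members that fell by more than 1 in both lines. Their changes in pcDNA were -1.33, -1.39, -1.08 and -1.24, and in pCTSH#1 -1.51, -1.05, -1.21 and -1.28.

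The member with the largest increase was mrpl9, the homologue of bacterial L9, a protein with a long arm reaching out from the large subunit. It measured 9.61, 9.60 and 9.61 at 0 h, 9.65, 9.63 and 9.67 at 6 h and 10.76, 10.81 and 10.65 at 16 h in pcDNA, and 9.62, 9.52 and 9.56 at 0 h, 9.61, 9.55 and 9.50 at 6 h and 10.69, 10.58 and 10.58 at 16 h in pCTSH#1. The 0 h and 6 h arrays lay close together and all 16 h arrays lay far above them. By limma it rose by 1.14 ± 0.068 (2.2-fold, adjusted p = 2.18e-11) in pcDNA and by 1.05 ± 0.068 (2.07-fold, adjusted p = 7.19e-11) in pCTSH#1. Mrps30, which in mammals lies in the large subunit despite its name, rose by 0.50 ± 0.089 and 0.37 ± 0.089. Mrpl1, Mrpl3, Mrpl15 and Mrpl19, all with bacterial counterparts, rose by 0.42, 0.36, 0.50 and 0.47 in pcDNA and by 0.28, 0.27, 0.44 and 0.60 in pCTSH#1.

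By site in the large subunit, the 8 members around the exit of the peptide tunnel split at 16 h in both lines, with 4 higher, 2 lower and Mrpl17 and Mrpl39 not passing. Mrpl44, mrpl24, Mrpl47 and Mrpl45, the last of which anchors the mitoribosome to the inner membrane, rose by 0.56, 0.54, 0.31 and 0.28 in pcDNA. Mrpl22 and Mrpl23 fell there by 0.53 and 0.45, and in pCTSH#1 by 0.63 and 0.51. Of the stalk and its base, mrpl11 fell and so did Mrpl12, the homologue of the L7/L12 stalk protein, by 0.34 and 0.31, whereas Mrpl10 and Mrpl53 did not pass. Of 7 members in the central protuberance, the landmark at the top of the large subunit, Mrpl46 rose and Mrpl18, Mrpl27 and Mrpl40 fell in both lines, by 0.74, 0.27 and 0.34 in pcDNA. Of the 4 members near the peptidyl transferase centre and the upper tunnel, Mrpl3 rose and Mrpl4 fell in both lines, Mrpl16 rose in pCTSH#1 alone and Mrpl2 passed in neither. These sites were assigned after the values had been seen. Members with a bacterial counterpart and those counted as found only in mitochondria had median 16 h changes of -0.344 and -0.199 in pcDNA and of -0.327 and -0.204 in pCTSH#1, with 26 of 45 and 16 of 31 lower in each line. This split counted Mrps18a and Mrps18b as found only in mitochondria, although both are related to bacterial S18. It counted Mrps18c, also related to S18, among those with a bacterial counterpart.

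At 6 h fewer members had moved and by less: 29 fell and 5 rose in pcDNA, and 22 fell and 6 rose in pCTSH#1 (limma, adjusted p below 0.05). Over all genes 39% passed in pcDNA and 34.2% in pCTSH#1, with 24.6% and 21.3% lower and 14.5% and 13% higher. The members' share of lower calls in pcDNA, 38.2%, lay near the 34.9% of genes in the brighter 50% of probe sets, and in pCTSH#1 it was 28.9% against 30.6%. After cyclic loess the split was 10 higher and 21 lower in pcDNA and 8 and 14 in pCTSH#1. The changes ranged from -0.58 to 0.46 in pcDNA and from -0.42 to 0.46 in pCTSH#1, and medians were -0.167 and -0.155 against -0.0564 and -0.0625 over all genes. Both lines shared 20 members that fell and 4 that rose (Mrpl30, Mrps18b, Mrpl1 and Mrpl3). The share of all genes called alike in both lines at 6 h is not given here.

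The largest 6 h decreases in pcDNA were those of Mrps31 at -0.58 ± 0.087 (adjusted p = 2.51e-05), Mrpl36 at -0.56 ± 0.075 (adjusted p = 5.91e-06) and Mrps33 at -0.53 ± 0.084 (adjusted p = 4.62e-05). Mrpl36 is the homologue of bacterial L36, and Mrps31 and Mrps33 are found only in mitochondria. In pCTSH#1 the largest were those of Mrpl34 at -0.42 ± 0.071 (adjusted p = 0.000125), Mrps33 at -0.41 ± 0.084 (adjusted p = 0.000796) and Mrps24 at -0.38 ± 0.081 (adjusted p = 0.00102). Upward, Mrps34 rose by 0.46 ± 0.083 (adjusted p = 0.000262) in pCTSH#1, and in pcDNA its change was 0.20 ± 0.083 (adjusted p = 0.0749).

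Some members turned between 6 h and 16 h. Mrpl30, the homologue of bacterial L30, measured 9.27, 9.29 and 9.36 at 0 h, 9.80, 9.75 and 9.77 at 6 h and 9.15, 9.19 and 9.14 at 16 h in pcDNA, and 9.34, 9.31 and 9.38 at 0 h, 9.69, 9.83 and 9.77 at 6 h and 9.24, 9.16 and 9.22 at 16 h in pCTSH#1. The 6 h arrays stood above all others, and the 16 h arrays lay below the 0 h arrays. By limma it rose by 0.46 ± 0.070 and 0.42 ± 0.070 at 6 h (adjusted p = 2.73e-05 and 0.000104) and fell by 0.61 and 0.55 from 6 h to 16 h. Its change from 0 h to 16 h did not pass, at -0.146 (limma, adjusted p = 0.103) in pcDNA and -0.134 (adjusted p = 0.134) in pCTSH#1.

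The reverse course was seen in Mrpl43, a large subunit protein without a bacterial counterpart, which measured 10.65, 10.83 and 10.91 at 0 h, 10.49, 10.37 and 10.40 at 6 h and 11.12, 11.13 and 10.98 at 16 h in pcDNA, and 10.63, 10.61 and 10.77 at 0 h, 10.36, 10.29 and 10.41 at 6 h and 11.15, 11.06 and 10.91 at 16 h in pCTSH#1. The 6 h arrays lay below and the 16 h arrays above the 0 h arrays, with no overlap in either line. It fell by 0.38 and 0.31 at 6 h and stood 0.28 and 0.37 above 0 h at 16 h. Mrpl47 passed in both directions in pcDNA, at -0.27 ± 0.082 and then 0.31 ± 0.082, and Mrpl15 in pCTSH#1, at -0.27 ± 0.083 and then 0.44 ± 0.083. Each such pair of changes rests on the same 0 h arrays. Between 6 h and 16 h themselves, 34 members fell and 17 rose in pcDNA, where 49.9% of all genes passed, and 37 fell and 17 rose in pCTSH#1, where 49.2% passed. By direction, 24.8% of all genes were higher and 25.1% lower in pcDNA, and 24% and 25.2% in pCTSH#1. The share of members called, 67.1% and 71.1%, stood beside 70.1% and 69.1% of the brighter genes.

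The clone labelled pCTSH#1 and the empty vector line differed in 1 member at 1 time. Mrps27, a small subunit protein found only in mitochondria, measured 8.30, 8.30 and 8.12 at 0 h, 7.70, 7.73 and 7.81 at 6 h and 8.36, 8.46 and 8.49 at 16 h in pcDNA, and 8.39, 8.48 and 8.22 at 0 h, 8.11, 8.03 and 8.18 at 6 h and 8.51, 8.49 and 8.67 at 16 h in pCTSH#1. Both lines dipped at 6 h and returned at 16 h, and at 6 h the pCTSH#1 arrays lay above the pcDNA arrays with no overlap. By limma the 6 h difference was 0.36 ± 0.090 (means 8.11 and 7.75, adjusted p = 0.0315). It did not pass when any 1 of the 6 arrays was left out, with each array centred on its median, or on the mean of the gene's 3 probe sets. The difference between the lines in the 6 h response, 0.24 ± 0.128, did not pass either (adjusted p = 0.915).

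For the other differences between lines, limma called no member. Over all genes 2.56% passed between pCTSH#1 and pcDNA at 0 h, 3.99% at 6 h and 5.28% at 16 h, and 3.45% between pCTSH#1 and INS1 at 0 h. The call rate was 0.119% for the difference in the 6 h response, 0.275% for that in the 16 h response and 0% between pcDNA and INS1. At an unadjusted p below 0.05, 1 member passed between the lines at 0 h, 6 at 6 h and 6 at 16 h, where 11.6%, 14.6% and 18% of all genes did. For the response differences 2 passed at 6 h and 3 at 16 h, against 6.2% and 8.56% of all genes, and 0 passed between either line and INS1, against 13.4% for pCTSH#1 and 4.43% for pcDNA. Member differences between the lines lay from -0.16 to 0.15 at 0 h and from -0.20 to 0.20 at 16 h, with a median SE of 0.0801. The 95% intervals of all 76 stayed within ±0.5 at both times, which leaves room for smaller differences. The largest differences in the 16 h response were those of Mrpl48 and Mrpl49, at -0.34 ± 0.110 (adjusted p = 0.348) and 0.34 ± 0.120 (adjusted p = 0.436). On its other probe set Mrpl48 changed by -0.85 in pcDNA and -0.81 in pCTSH#1 at 16 h, and Mrpl49 by -1.496 and -1.235.

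For 20 members the array carries several probe sets, which for some genes gave different sizes of change. Mrps14, a homologue of bacterial S14, changed by -0.23 at 16 h in pcDNA on the probe set used here and by -1.22 on its other one. The corresponding values were -0.50 and -1.33 for Mrpl50 and -0.34 and -1.05 for Mrpl12, whose remaining probe set had a mean of 3.83, at the background. Mrpl10 passed on its other probe set in pCTSH#1 at 0.36, against -0.02 on the one used. Mrpl48 differed in its call in both lines. Its probe set used here did not pass, at 0.19 in pcDNA and -0.15 in pCTSH#1, and the other one passed at -0.85 and -0.81. By contrast the 4 probe sets of Mrpl51 changed by -0.83 to -1.11 and both of Mrpl49 by -1.39 and -1.50, and at 6 h in pcDNA the 3 of Mrps27 changed by -0.43 to -0.49. With a gene's probe sets averaged in place of the brightest, 14 members rose and 43 fell at 16 h in pcDNA.

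**Figure D4:**
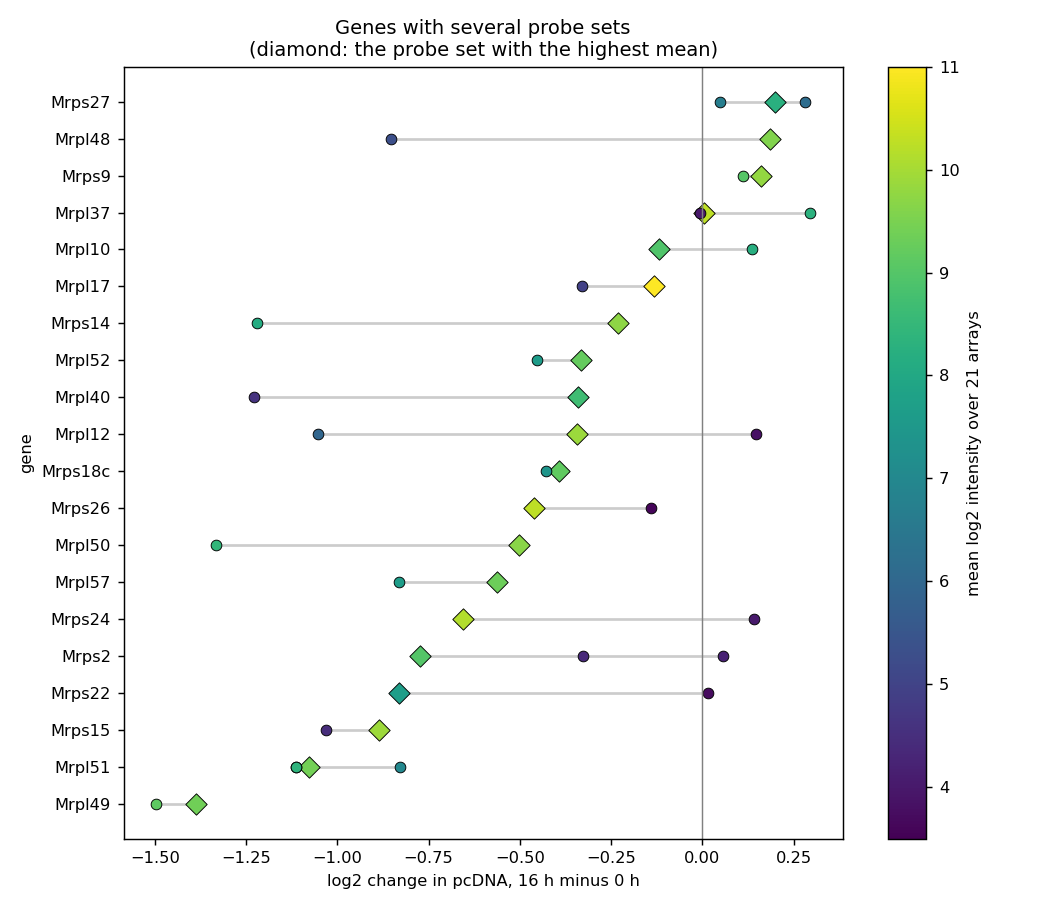
Log2 change from 0 h to 16 h in pcDNA for each probe set of the 20 members with more than 1; each line joins the probe sets of a gene, diamonds mark the probe set used, and colour gives the mean log2 intensity over 21 arrays. Probe sets of Mrpl49, Mrpl51 and Mrps9 lie close together, and those of Mrps14, Mrpl48 and Mrpl50 lie far apart.

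The letters of the NRF1 motif, marked in capitals in the sequences above, were in 10 of the 62 member promoter windows (16.1%). They were in 4.71% of all 27457 windows of the table and in 8.53% of the windows of genes on the array. Of the 10 members, 5 rose at 16 h in both lines (mrpl9, Mrps18b, Mrpl32, Mrpl44 and Mrpl45), Mrpl57 and Mrps26 fell, and Mrpl14, Mrpl17 and Mrpl30 did not pass. Among the 52 members without it, 6 rose and 34 fell in each line. Over array genes the motif went with more calls in both directions: in pcDNA 32.7% of genes with it were higher and 37.1% lower, against 25.7% and 29.4% without it. In the mrpl9 sequence above the match begins 26 bases before the start, and in Mrps18b 20 bases before it.

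Of the other motifs, each searched on both strands, CCGGAAGT, the motif of GABPA, was in 8 of the 62 member windows (12.9%, against 6.99% of array genes). AAGATGGCG, the motif of YY1, was in 8 (12.9%, against 3.11%), and the E-box CACGTG, bound by MYC, in 7 (11.3%, against 8.96%). The core of the interferon-stimulated response element was in 3 member windows, those of Mrps18c, Mrps21 and Mrps33 (4.84%, against 2.94%), and all 3 genes fell at 16 h in both lines. Of the 59 members without it, 11 rose and 33 fell in each line, so falling was common among members with or without this motif. Array genes with this motif were 41.8% higher and 20.3% lower in pcDNA, against 25.8% and 30.3% without it. Of the 8 members with the YY1 motif, 2 rose and 4 fell in each line, and of the 54 without it 9 rose and 32 fell; array genes with it were 31.7% higher and 38.1% lower in pcDNA. Of the 8 with the GABPA motif, 1 rose and 4 fell, and of the 54 without it 10 rose and 32 fell; array genes with it were 32.5% higher and 33.6% lower. Of the 7 with the E-box, 2 rose and 4 fell in each line, and of the 55 without it 9 rose and 32 fell. Array genes with the E-box were 33.8% higher and 27.6% lower in pcDNA, against 25.5% and 30.3% without it. Some windows hold several motifs: Mrps18b and Mrpl30 each hold the NRF1 motif and an E-box. A match says only that these letters are in the window.

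Head-to-head neighbours were counted next: 18 of 62 members (29%) had another gene starting within 1000 bases on the opposite strand, against 13.9% of 11057 array genes. In the pair whose shared interval is printed above, Mrps11 fell by 1.34 and Mrpl46 rose by 0.45 at 16 h in pcDNA, from starts 234 bases apart. Mrps11 measured 9.46, 9.35 and 9.45 at 0 h and 8.05, 8.09 and 8.12 at 16 h, and Mrpl46 8.26, 8.18 and 8.16 at 0 h and 8.75, 8.73 and 8.45 at 16 h. Neither gene's groups overlapped, and the directions were opposite in pCTSH#1 as well, at -1.30 and 0.39.

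Mrps18b and Ppp1r10, which encodes a regulatory subunit of protein phosphatase 1, start 588 bases apart. Ppp1r10 measured 7.93, 7.97 and 8.28 at 0 h, 8.53, 8.56 and 8.72 at 6 h and 4.97, 4.85 and 4.89 at 16 h in pcDNA. It lay above 0 h at 6 h and far below it at 16 h, where its change was -3.16 ± 0.134 (limma, adjusted p = 1.32e-13), while Mrps18b rose at both times. Mrpl47 rose by 0.31 while Ndufb5, a subunit of respiratory complex I whose start lies 244 bases away, changed by -1.06 ± 0.077 (adjusted p = 3.69e-10). Mitd1, which acts in membrane abscission at the end of cell division and starts 194 bases from Mrpl30, rose by 2.94 ± 0.112 at 6 h and 2.83 ± 0.112 at 16 h (adjusted p = 3.91e-14 and 4.88e-14). Mrpl51 and the condensin subunit gene Ncapd2, with starts 50 bases apart, both fell, by 1.08 and 1.13. There were 14 pairs with a measured partner, in which Mrps11 and Mrpl46 count from both sides. At 16 h in pcDNA both genes were lower in 5, the member higher and the partner lower in 3, and the member lower and the partner higher in 2. Over all genes 29.5% were lower and 25.8% higher there, and pairs of other array genes were not counted this way. The 5 include Mrpl41 with Pnpla7, which lay near background and did not pass in pCTSH#1 (0.156, limma, adjusted p = 0.342). The 2 include Mrps7 with Gga3, at 0.265 in pcDNA (limma, adjusted p = 0.0484) and 0.192 in pCTSH#1 (adjusted p = 0.161).

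**Figure D5:**
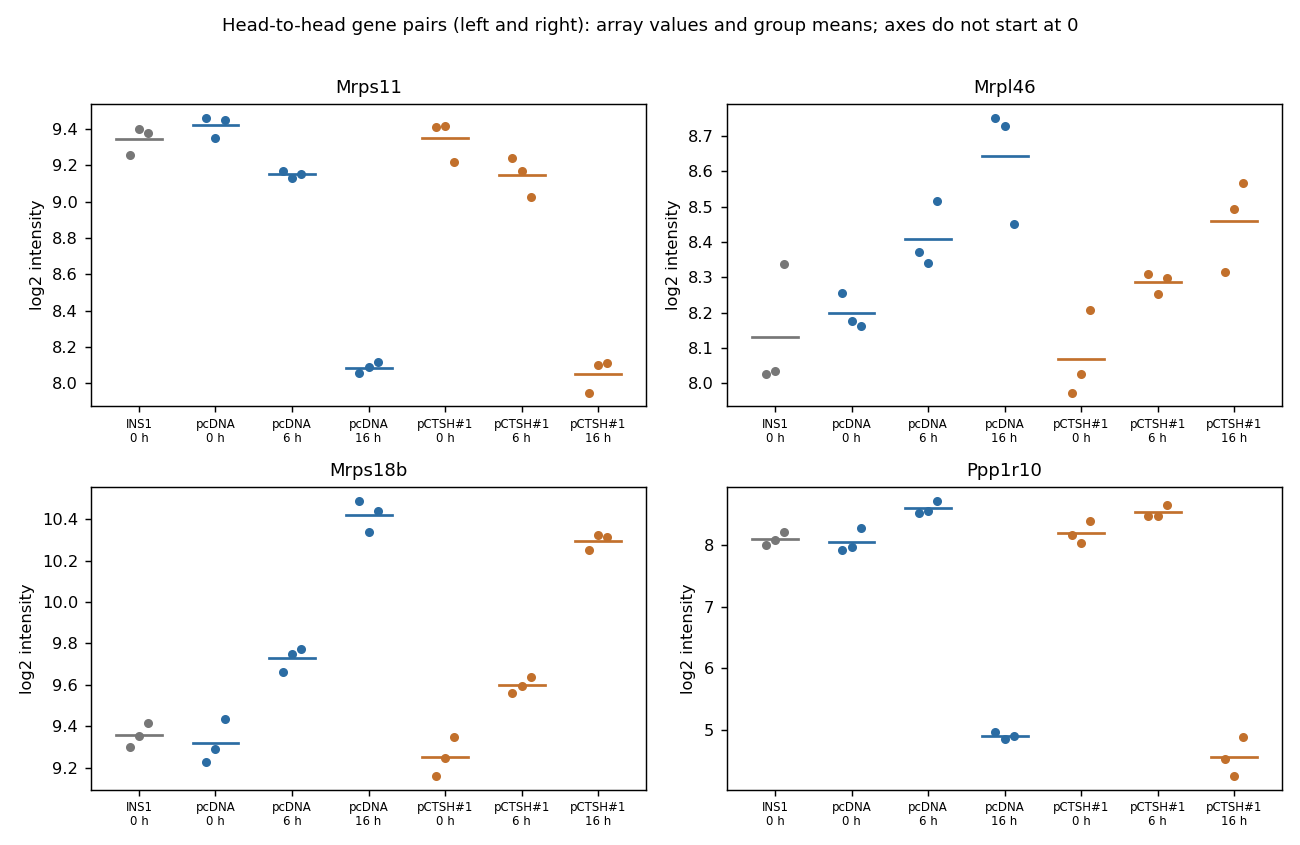
Log2 intensity on each array (points) and group means (lines) for the head-to-head pairs Mrps11 and Mrpl46 (top) and Mrps18b and Ppp1r10 (bottom), for INS1 (grey), pcDNA (blue) and pCTSH#1 (orange); axes do not start at 0. In each pair the 2 genes lie on opposite sides of their 0 h levels at 16 h in both lines.

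Other genes of mitochondrial translation were followed through lists by function, read against the same shares of all genes called. At 16 h in pcDNA these were 55.3% in all, 25.8% higher and 29.5% lower. Of 5 measured mitoribosomal proteins with other names, Aurkaip1 and Ptcd3 fell in both lines at 16 h, by 0.35 and 0.43 in pcDNA. Dap3 rose at 6 h, by 0.24 and 0.27. Of 11 translation factors 3 rose and 4 fell at 16 h in pcDNA: Mrrf, the ribosome recycling factor, rose by 1.38 ± 0.090, Mtfmt, which formylates the initiator tRNA, fell by 0.98 and Gfm1, the elongation factor that moves the ribosome along, fell by 0.68. Of 16 mitochondrial aminoacyl-tRNA synthetase genes, among them subunits of the amidotransferase that completes glutaminyl-tRNA, 5 rose and 5 fell, from 1.62 for Ears2 to -1.59 for Gatc.

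Among 20 assembly factors, 10 fell and 0 rose at 6 h in pcDNA, with a median of -0.248, and 10 fell and 1 rose in pCTSH#1, with a median of -0.3. Over all genes 24.6% fell and 14.5% rose at 6 h in pcDNA, and 21.3% and 13% in pCTSH#1. Eral1, which is among the 20, lay above background on only 1 array, at 6 h in pCTSH#1. The RNA methyltransferase genes Mrm2 and Mrm1 fell by 1.49 and 0.85 at 6 h and by 2.29 and 1.47 at 16 h in pcDNA. At 16 h 6 factors had risen and 6 fallen there, with Fastkd2, an RNA-binding protein, and Rpusd4, a pseudouridine synthase, up by 1.12 and 0.99. Of 15 genes for mitochondrial transcription and RNA, 6 rose and 7 fell: Mterf1, a transcription terminator, rose by 1.21, Ssbp1, the single-strand DNA-binding protein, fell by 1.36, and Slirp and Lrpprc, partners in stabilising mitochondrial messenger RNA, fell by 1.01 and 0.83.

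Of 9 regulators of mitochondrial biogenesis, 7 rose and 0 fell at 16 h in each line. Over all genes 25.8% were higher and 29.5% lower in pcDNA, and 25.2% and 30.1% in pCTSH#1. Myc measured 7.92, 7.77 and 7.68 at 0 h and 11.05, 11.20 and 11.10 at 16 h in pcDNA, and Yy1 measured 9.90, 10.03 and 9.99 and 11.43, 11.49 and 11.31. Both rose, by 3.33 ± 0.091 and 1.44 ± 0.076 in pcDNA and by 3.29 ± 0.091 and 1.32 ± 0.076 in pCTSH#1. Nrf1, from 4.07, 4.19 and 4.51 to 6.19, 6.25 and 5.75, lay close to the background at 0 h and changed by 1.81 and 1.38. Esrra and Pprc1, a nuclear receptor and a coactivator of the same network, rose by 1.10 and 0.96. Gabpa itself did not pass at 16 h in pcDNA, at 0.07 ± 0.086 (limma, adjusted p = 0.579), and in pCTSH#1 it rose by 0.23. Ppargc1a, a coactivator near background on most arrays, rose by 1.43 in pcDNA and did not pass in pCTSH#1, at 0.20 ± 0.188.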

How the data were processed

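Total RNA of rat INS-1 cells was hybridised to 21 Affymetrix arrays, 3 for each of 7 groups. The deposited values are log2 intensities from 2.77 to 14.0; RMA, affy and limma are named in the submitters' processing notes, with no version. Their precision is limited by the number of arrays. Of 31137 probe sets, 95 array controls were left out. The platform annotation gives 19063 probe sets 1 symbol and 572 several, and does not list 11407.

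Groups were compared with limma 3.58.1 (R 4.3.3), in 1 model of 7 group means over all 31042 probe sets with Benjamini-Hochberg adjustment per comparison, for 13 comparisons; differences are on the log2 scale. On simulated data with the size of the 16 h comparison in pcDNA, changes of 0.5 and 1 were recovered for 34% and 90% of 50 probe sets each. The changed probe sets were drawn from all, bright or not. Only 89 of the 31042 probe sets passed there, whereas 55.3% of genes passed in the real comparison. The adjustment was thus stricter in the simulation, so these shares do not give the recovery for the members.

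Members named are the 6 highest and 6 lowest per cytokine response that passed without overlap (4 for other comparisons), those passing in opposite directions, those whose probe sets disagree, and Mrpl12, Mrps12, Mrps18a and Mrps30; members at named sites, in motif or neighbour counts or with unequal probe sets, and neighbouring genes, were chosen after their values were seen. The members and lists were chosen with earlier results of these data known. Alternatives were another scaling, the replicate number as a block, the brighter 50% of probe sets, other limma settings, only the arrays compared, the mean of a gene's probe sets and leaving out each array. Promoter windows and starts came from RefSeq, build GRCr8, with the first listed window of a gene.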

Additional observations from a re-analysis of the deposited data

How the results depend on the processing

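The counts of members called in the 6 cytokine comparisons within a line stayed within 1.5 times under every alternative run. With 1 array left out they were 28 to 32 of 76 at 6 h and 53 to 58 at 16 h in pcDNA, 20 to 26 and 54 to 58 in pCTSH#1, and 47 to 49 and 48 to 52 between 6 h and 16 h. The 1 call between pCTSH#1 and pcDNA at 6 h became 0 with arrays centred on their medians, 0 with a gene's probe sets averaged, 0 with any array left out, 3 among the brighter 50% of probe sets and 3 with limma's trend and robust settings. At 16 h that comparison gave 1 call among the brighter 50%. The other comparisons between lines gave 0 calls throughout. The difference between the 16 h and 0 h median member levels in pcDNA, -0.241, became -0.147 with centred arrays and -0.14 after cyclic loess. Centring also moved the median of all genes between 6 h and 16 h in pCTSH#1 to 0.103.

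All 3 correlations of same-numbered arrays were above 0.1 in only 2 of 21 pairs of groups (range -0.0903 to 0.244), so the numbers were not taken as pairs. Yet 79 of 126 best matches fell on the own number, where 42 would if arrays shared nothing, a hint from the data that same-numbered arrays share something. With the replicate number as a block, 35 members passed at 6 h and 56 at 16 h in pcDNA, 28 and 60 in pCTSH#1, and 53 and 54 between 6 h and 16 h; 1 passed between the lines at 6 h. None of 109 values for named members lost its call with the block. Of these, 90 kept direction and call in every alternative; most losses were 6 h changes in pCTSH#1, those of Mrpl1, Mrpl12, Mrpl27, Mrps12 and Mrps27 among them. Counting only symbols with a capital M, a choice made after seeing the data, 53 of 73 members passed at 16 h in pcDNA.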
